A study of Mus musculus with 6 samples.

Results

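The collagen genes were taken as every gene whose symbol has the form of a collagen chain (Col, a type number, a and a chain number), and 44 of the 19938 genes with a named probe set met this rule. Each was read through the probe set annotated to that symbol alone with the highest mean over the 6 arrays. Col6a5 and Col6a6 had 2 such probe sets, and the other 42 genes had 1. The 44 fell into 11 fibrillar chains, 8 basement membrane chains (types IV, XV and XVIII), 9 FACIT chains, 3 chains of network-forming types VIII and X, and 13 others.

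The tissue was mouse embryonic stomach at E13.5, the day of gestation, and each array measured all of its cells together as total RNA. In 3 samples, called SmoM2 here, the genotype was Nkx3.2Cre;R26-SmoM2, and the other 3 were wild type. In the SmoM2 embryos a Cre recombinase driven by Nkx3-2, a gene of the stomach mesenchyme, switches on an active form of the hedgehog transducer Smoothened from the Rosa26 locus, so only cells with a history of Cre activity carry it. None of the arrays was a Cre-only or a SmoM2-only control. The labels leave the origin of the replicates (embryos, litters, pools) unstated, so the scatter of these 6 arrays may be partly technical. Each limma p-value reflects that scatter together with a spread shared over all genes, toward which the fit draws each gene's variance. A gene whose arrays lie close together can therefore fail to pass.

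Collagens are the main structural proteins of the extracellular matrix. A collagen molecule is a triple helix of chains built from Gly-X-Y repeats, in which hydroxylated prolines hold the helix together. Fibrillar types form the fibres of connective tissue, type IV forms the sheet of basement membranes under epithelia and around muscle and vessels, FACIT chains sit on the surface of fibrils, and types VIII and X form short-chain lattices. In the embryonic gut most fibrillar collagen comes from the mesenchyme, the tissue that receives the hedgehog signal from the epithelium.

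The values were log2 signals, so a difference of 1 is a doubling of signal, and the number of arrays limits their precision. The arrays fell into sets that crossed the genotypes. SmoM2 2 went with wild type 1 and 2 (set A) and SmoM2 1 and 3 with wild type 3 (set B), with a Pearson correlation over all probe sets of 0.993 to 0.995 within sets and 0.983 to 0.992 between them. No label names a batch behind these sets, and changes within each set are given for the genes that passed the test and for some that came near it. Each of these changes rests on a single array on a side, SmoM2 2 in set A and wild type 3 in set B. Mean signal of 3 Y-linked genes (Eif2s3y, Kdm5d and Uty) was 8.71 to 9.27 on the SmoM2 arrays and 9.07 to 10.37 on the wild type arrays, so Y-linked signal and genotype were partly tied. Xist, the RNA of the inactive X chromosome, was at 11.93, 12.37 and 11.43 in SmoM2, against 7.11, 11.94 and 11.68 in wild type, with wild type 1 far below the other arrays. Hhip, a hedgehog target, rose (11.70 ± 0.032 in SmoM2 and 10.42 ± 0.066 in wild type, SD, n = 3 each; limma adjusted p = 0.000175). Of 5 genes read for the hedgehog signal 2 rose, Hhip and Ptch1 (change 0.48, adjusted p = 0.0174), and 0 fell. Gli1 (0.42, adjusted p = 0.0727), Smo (0.35, adjusted p = 0.154) and Nkx3-2 (-0.12, adjusted p = 0.648) did not pass. Smo and Nkx3-2 are also parts of the genotype (the active form and the Cre driver), so neither is a plain readout of the signal. Of 7 stomach markers 1 rose (Foxf1, change 0.37, adjusted p = 0.0366) and 0 fell, with 5 of 7 changes negative and a median of -0.36. Barx1, a defining marker of stomach mesenchyme, had a mean of 12.60 in SmoM2 and 12.57 in wild type. Shh, Sox2, Isl1 and Gata4 had differences of -0.43, -0.38, -0.37 and -0.36 without passing.

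Of the 44 collagen genes, 2 were lower in SmoM2 stomach, 0 were higher and 42 did not pass the threshold (limma, Benjamini-Hochberg adjusted p under 0.05 over all 19938 genes). The 2 were Col8a1, a chain of short-chain type VIII collagen, and Col1a2, a chain of type I collagen, the main fibre of connective tissue. They make up 4.55% of the collagens, where 0.983% of all genes passed in either direction, 0.657% as lower and 0.326% as higher. At an unadjusted p under 0.05 there were 4 collagens (9.09%), against 10.5% of all genes, a share near the background. The fall of a transcript in whole tissue can mean fewer cells of a type or less RNA per cell, and in these arrays they cannot be told apart.

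**Figure D1:**
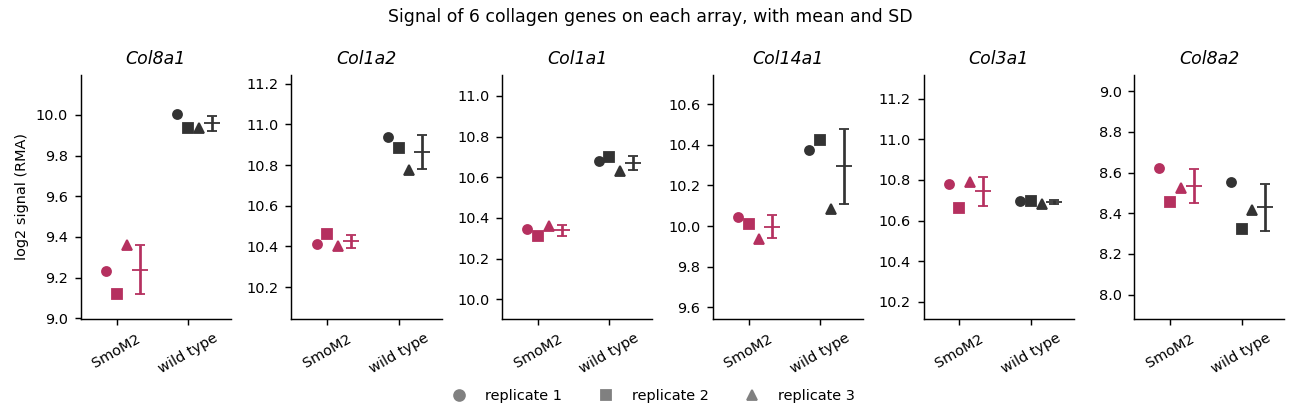
Log2 signal (RMA) of 6 collagen genes on each array, SmoM2 left and wild type right, with a symbol per replicate number and the mean with SD beside the points. Every axis spans the same range of log2 units around its gene. Col8a1, Col1a2, Col1a1 and Col14a1 had all SmoM2 points below all wild type points, and Col3a1 and Col8a2 overlapped.

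The promoters of 3 collagens follow, for the 2 genes that changed and for Col3a1, the type III fibrillar chain that did not pass. Each line holds the 250 bases before the RefSeq transcription start in build GRCm38.p6, 5′ to 3′ on the gene's strand. Col8a1 lies at chr16:57754738-57754987 on the minus strand, Col1a2 at chr6:4505368-4505617 on the plus strand and Col3a1 at chr1:45311288-45311537 on the plus strand. Capitals mark matches, on either strand, to the GC box GGGCGG, the CCAAT box CCAAT, the TATA box TATAAA and the TEAD core GGAATG.
Col8a1: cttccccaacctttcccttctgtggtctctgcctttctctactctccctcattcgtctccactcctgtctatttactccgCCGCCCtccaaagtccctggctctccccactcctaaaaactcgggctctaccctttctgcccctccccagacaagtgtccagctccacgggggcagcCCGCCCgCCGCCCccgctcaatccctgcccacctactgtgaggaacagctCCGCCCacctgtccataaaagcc
Col1a2: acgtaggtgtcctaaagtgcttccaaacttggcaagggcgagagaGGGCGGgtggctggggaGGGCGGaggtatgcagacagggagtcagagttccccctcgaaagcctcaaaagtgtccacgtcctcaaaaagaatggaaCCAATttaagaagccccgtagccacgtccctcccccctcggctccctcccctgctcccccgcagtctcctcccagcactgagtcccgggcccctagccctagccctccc
Col3a1: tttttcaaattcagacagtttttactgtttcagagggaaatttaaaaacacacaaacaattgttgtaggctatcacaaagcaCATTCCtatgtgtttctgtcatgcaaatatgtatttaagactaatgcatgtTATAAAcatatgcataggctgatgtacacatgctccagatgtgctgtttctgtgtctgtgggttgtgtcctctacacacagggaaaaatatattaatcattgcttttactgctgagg
The Col8a1 window held 4 GC boxes, the nearest 23 bases before the start. In the Col1a2 window there were 2 GC boxes and a CCAAT box 109 bases before the start. The Col3a1 window held TATA box letters 117 bases and a TEAD core 168 bases before the start, and no GC box. The RefSeq table held 38 windows for 35 of the 44 collagens, with Col1a1 and Col14a1 among the 9 without one. A GC box was in 57.9% of the collagen windows and 32.7% of all 32851 windows in the table, and a CCAAT box in 34.2% and 33.8%. A TATA box was in 13.2% of the collagen windows and 12.4% of all windows, and the TEAD core in 10.5% and 12.6%. The GLI core TGGGTGGTC, the letters best known for hedgehog transcription factors, was in 0 of the 38 collagen windows and in 74 of all windows (0.225%). None of the motifs overlapped another in the 3 windows printed, and a match is a description of letters only.

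Type VIII collagen, which lines vessels and the back of the cornea, gave the collagen gene with the largest change. Col8a1 stood at 9.23, 9.12 and 9.36 on the SmoM2 arrays, against 10.003, 9.93 and 9.94 on the wild type arrays. The groups did not overlap, and SmoM2 2 was lowest. The change was -0.72 (SE 0.078, 95% interval -0.89 to -0.54), a 1.65-fold lower signal, with a limma adjusted p of 0.00427. By p-value it ranked 24 among all genes. Within set A the change was -0.85 and within set B -0.64, and leaving out each array in turn gave -0.78 to -0.66 with adjusted p from 0.00806 to 0.0307. With the Y-linked signal added to the model, the call was lost (change -0.66, adjusted p = 0.0857).

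Its partner chain Col8a2, which can join Col8a1 in the same molecule, had 8.62, 8.46 and 8.52 on the SmoM2 arrays, against 8.55, 8.32 and 8.42 on the wild type arrays. These groups overlapped (change 0.11, SE 0.082, adjusted p = 0.750). The Col8a1 signal minus the Col8a2 signal within an array averaged 0.70 ± 0.12 in SmoM2 and 1.53 ± 0.082 in wild type (SD, n = 3 each; exact two-sided permutation p = 0.1, the smallest that 3 against 3 arrays allow, and 0.14 adjusted over 7 such differences). The pairs were picked after the single values were known. Col10a1, the collagen of cartilage that is turning into bone, was dim, at 7.59 ± 0.084 in SmoM2 and 7.54 ± 0.16 in wild type (SD, n = 3), with a change of 0.053 (adjusted p = 0.909).

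The fibrillar class had 1 of 11 members past the threshold, a chain of type I collagen. Col1a2 had 10.41, 10.46 and 10.40 on the SmoM2 arrays, against 10.94, 10.88 and 10.77 on the wild type arrays. The SmoM2 arrays lay close together and below every wild type array. The change was -0.44 (SE 0.070, 95% interval -0.60 to -0.28), 1.36-fold lower, with a limma adjusted p of 0.0241. It was -0.45 within set A and -0.37 within set B. Without wild type 1, wild type 2, SmoM2 1 or SmoM2 3 the adjusted p was 0.147, 0.0939, 0.0712 and 0.143, and over the 6 such fits the change ran from -0.48 to -0.40. With the Y-linked signal in the model it was -0.36 (adjusted p = 0.485).

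Col1a1, which supplies the other chains of type I collagen, had 10.34, 10.31 and 10.36 in SmoM2, against 10.68, 10.70 and 10.63 in wild type. The groups did not overlap, and the change of -0.33 (SE 0.064, 95% interval -0.48 to -0.19) had a limma adjusted p of 0.0508, just outside the threshold. It was -0.38 within set A and -0.28 within set B. Leaving out any 1 array gave -0.35 to -0.32 with adjusted p from 0.0764 to 0.255. The difference Col1a2 minus Col1a1 within an array averaged 0.086 ± 0.057 in SmoM2 and 0.19 ± 0.057 in wild type (SD, n = 3 each; exact two-sided permutation p = 0.2), which does not show that both chains changed alike.

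Col3a1, the chain of type III collagen that shares fibrils with type I in soft tissue, had 10.78, 10.66 and 10.79 in SmoM2, against 10.70, 10.70 and 10.68 in wild type. These values overlapped, with a change of 0.052 (95% interval -0.10 to 0.20, adjusted p = 0.864). The difference Col1a2 minus Col3a1 within an array was -0.37, -0.20 and -0.39 in SmoM2, against 0.24, 0.19 and 0.093 in wild type (exact two-sided permutation p = 0.1, the smallest possible, 0.14 adjusted over the 7). For Col1a1 minus Col3a1 the means were -0.40 ± 0.047 in SmoM2 and -0.021 ± 0.027 in wild type (SD, n = 3 each; exact permutation p = 0.1). Type I signal was lower relative to type III on every SmoM2 array than on any wild type array. The pairs were picked after the single values were known, so this order is no separate support. Col4a2 minus Col4a1, with a shift of only -0.043, also had an exact permutation p of 0.1.

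Type V chains start type I fibrils and help set their width. Col5a1 had 9.41, 9.39 and 9.43 in SmoM2, against 9.48, 9.44 and 9.52 in wild type, groups that did not overlap by a narrow margin (change -0.071, adjusted p = 0.798). Col5a2 had a change of -0.073 and Col5a3 one of 0.027, both with overlapping groups. Col2a1, Col11a1 and Col11a2, the fibrillar chains of cartilage, had changes of -0.021, -0.0039 and 0.050, and Col24a1 and Col27a1 of 0.011 and -0.013. Of the cartilage and notochord markers measured here 1 of 10 was lower (Sox6, change -0.40, adjusted p = 0.0349) and 0 were higher. The mean level of these 10 markers was 8.61 to 8.68 on the SmoM2 arrays and 8.61 to 8.73 on the wild type arrays, and Acan, the main cartilage proteoglycan, was at 7.83 in SmoM2 and 7.74 in wild type.

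**Figure D2:**
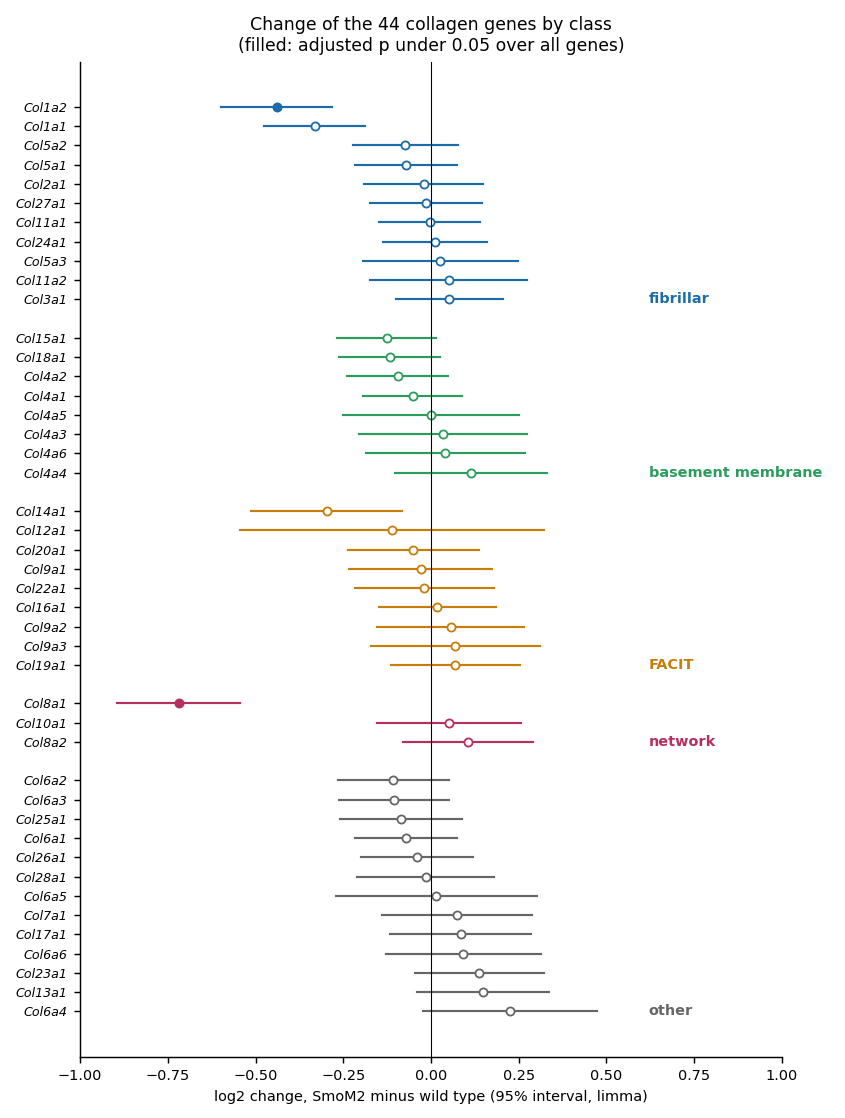
Log2 change, SmoM2 minus wild type, of the 44 collagen genes grouped by class, with 95% intervals from limma. Filled points (Col8a1 and Col1a2) passed an adjusted p of 0.05 over all genes. The intervals of 40 genes lay wholly between -0.5 and 0.5.

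The basement membrane class had 0 of 8 members past the threshold. Its 4 brightest members were lower in SmoM2 without overlap between the groups, as were 10.1% of all genes. Col4a1 and Col4a2, the chains of the common type IV molecule of embryonic basement membranes, are neighbours on chromosome 8 that are transcribed away from each other. Col4a1 had 9.78, 9.79 and 9.77 in SmoM2, against 9.81, 9.84 and 9.84 in wild type (change -0.052, SE 0.063, adjusted p = 0.851). Col4a2 had 9.43, 9.48 and 9.45 in SmoM2, against 9.51, 9.58 and 9.56 in wild type (change -0.095, SE 0.064, adjusted p = 0.696). The gaps between the groups were narrow for both genes and closed once array medians were subtracted, and neither difference passed the test.

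Col15a1 and Col18a1, chains that anchor basement membranes and whose ends are cut off as restin and endostatin, followed the same order. Col15a1 had 9.37, 9.43 and 9.39 in SmoM2, against 9.53, 9.52 and 9.52 in wild type (change -0.13, adjusted p = 0.547). For Col18a1 the values were 9.70, 9.77 and 9.78 in SmoM2, against 9.87, 9.85 and 9.87 in wild type (change -0.12, adjusted p = 0.602). The minor type IV chains, found mostly in mature kidney, ear and other special basement membranes, had changes of 0.033 for Col4a3, 0.11 for Col4a4, 0.00033 for Col4a5 and 0.041 for Col4a6, all with overlapping groups. Col4a4, the most positive of the class, had 8.87, 8.59 and 8.72 in SmoM2, against 8.66, 8.45 and 8.71 in wild type. Col4a3 and Col4a4 also lie side by side, on chromosome 1, as do Col4a5 and Col4a6 on chromosome X.

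Among the FACIT chains 0 of 9 passed. Col14a1, which coats type I fibrils, had 10.05, 10.01 and 9.94 in SmoM2, against 10.38, 10.42 and 10.08 in wild type. The groups did not overlap, but wild type 3 stood near the SmoM2 arrays (change -0.30, SE 0.095, 95% interval -0.51 to -0.084, adjusted p = 0.261). The change was -0.39 within set A and -0.093 within set B. Col12a1, its close relative, had 9.92, 10.46 and 9.87 in SmoM2, against 10.14, 10.58 and 9.88 in wild type. It had the widest spread of any collagen (SD 0.33 in SmoM2 and 0.36 in wild type), with SmoM2 2 and wild type 2 high, and its interval ran from -0.54 to 0.32.

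The type IX chains, which decorate cartilage fibrils, had changes of -0.030 for Col9a1, 0.056 for Col9a2 and 0.070 for Col9a3. Col19a1, the most positive of the class, had 7.97, 7.79 and 7.86 in SmoM2, against 7.77, 7.71 and 7.93 in wild type (change 0.070, adjusted p = 0.845). For Col16a1, a chain of fibroblasts and smooth muscle, Col20a1 and Col22a1 the differences were 0.018, -0.050 and -0.019. The groups overlapped for each of these genes.

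The class of other collagens had 0 of 13 past the threshold. Type VI collagen forms beaded filaments around cells, and the differences of its classical chains were negative without passing the test. Col6a1 had 9.71, 9.66 and 9.73 in SmoM2, against 9.76, 9.75 and 9.82 in wild type (change -0.071, adjusted p = 0.800). Col6a2, its neighbour on chromosome 10, had 9.71, 9.65 and 9.72 in SmoM2, against 9.74, 9.89 and 9.76 in wild type (change -0.11, adjusted p = 0.692). Neither group pair overlapped, and Col6a3, with a change of -0.11 and an adjusted p of 0.689, did overlap. The later described chains of the family, neighbours on chromosome 9, had changes of 0.23 for Col6a4, 0.016 for Col6a5 and 0.092 for Col6a6. Col6a4 had the largest positive change of any collagen, at 8.65, 8.36 and 8.48 in SmoM2 against 8.16, 8.16 and 8.49 in wild type. Its groups overlapped through wild type 3, and the 95% interval was -0.022 to 0.47 (adjusted p = 0.534). The unused probe sets of Col6a5 and Col6a6 were dimmer, near 7.3 and 7.5, and changed by 0.045 and 0.046.

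The collagens that cross the cell membrane did not pass either. Col13a1, found at sites of cell adhesion, had a difference of 0.15 (adjusted p = 0.619), Col23a1 of 0.14 (adjusted p = 0.642) and Col17a1, a hemidesmosome component of stratified epithelium, of 0.085. Col25a1, best known from neurons and muscle, had one of -0.085. Col7a1, which makes the anchoring fibrils of stratified epithelium, had a change of 0.074. Col26a1 had the highest wild type signal of the class, with 10.25, 10.17 and 10.27 in SmoM2, against 10.30, 10.19 and 10.33 in wild type, and a change of -0.040. Col28a1 had a change of -0.015. Every gene named in these sentences had overlapping groups.

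By class, the median change was -0.013 for fibrillar, -0.026 for basement membrane, -0.019 for FACIT, 0.053 for network and 0.016 for other collagens. Over all 44 it was -0.0085, with 21 positive and 23 negative changes, beside a median of 0.0018 and 49.2% negative changes over all genes. Medians this near 0 carry no direction, since leaving out single arrays moved that of all 44 between -0.046 and 0.038, and a repeated quantile normalization turned that of the fibrillar class to 0.029. Groups did not overlap for 11 collagens (25%), beside 15.7% of all genes. In all 11 the SmoM2 values were the lower ones, beside 10.1% of all genes lower and 5.64% higher without overlap. They were Col8a1, Col1a2, Col1a1, Col14a1, Col15a1, Col18a1, Col6a2, Col4a2, Col6a1, Col5a1 and Col4a1, all above the collagens' median level. For Col14a1, Col6a2, Col4a2, Col6a1, Col5a1 and Col4a1 the gap between the groups was narrower than the range of array medians (8.56 to 8.62). Once each array's own median was subtracted, the groups of Col6a2, Col4a2, Col6a1, Col5a1 and Col4a1 overlapped. Those of Col14a1 and of the other genes just named stayed apart. The shares over all genes were not recounted in this way. The shares over all genes cover every level of signal, and a comparison with genes of like brightness was not made.

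**Figure D3:**
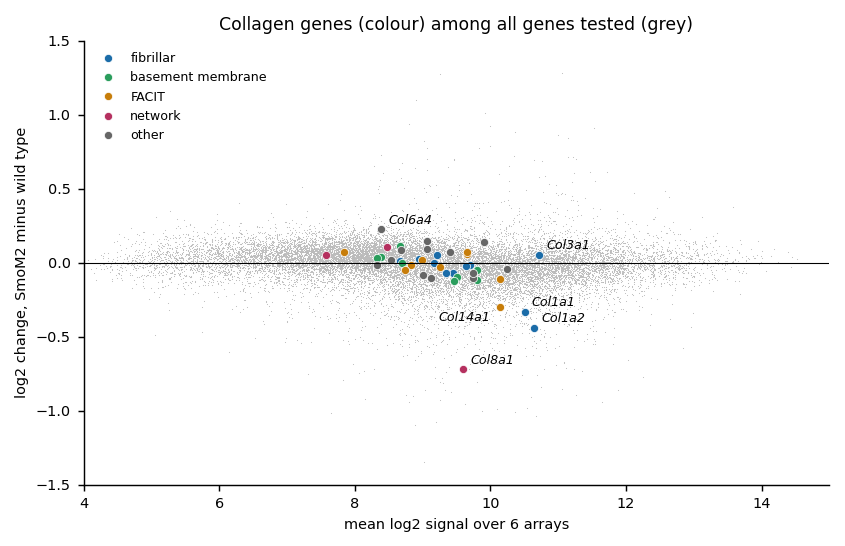
Log2 change, SmoM2 minus wild type, against the mean log2 signal over the 6 arrays, with collagens coloured by class on top of all genes tested in grey. Of the 22 brighter collagens 17 lie below 0, and of the 22 dimmer ones 6 do, and 2 genes with changes beyond 1.5 lie outside the plot.

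Wild type levels ran from 8.66 to 10.86 for fibrillar chains (median 9.48) and from 8.31 to 9.87 for basement membrane chains (median 9.11). FACIT chains ran from 7.80 to 10.29 (median 9.28), network chains from 7.54 to 9.96 (median 8.43) and the others from 8.27 to 10.27 (median 9.05). In SmoM2 the class medians were 9.41 for fibrillar, 9.06 for basement membrane, 9.25 for FACIT, 8.54 for network and 9.11 for the others. Probe sets differ in how well they bind, so these levels give no order of transcript abundance between genes. Olfactory and vomeronasal receptor genes, which stomach is not known to use, had a 95th percentile of 8.05 in mean signal over 1194 genes. Col10a1 and Col19a1 lay under it, at means of 7.57 and 7.84, and the other 42 collagens above it.

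Change went with brightness. Of the 22 collagens above their median level of 9.24, 17 had negative changes (median -0.071), and of the 22 below it 6 had negative changes (median 0.030). Over all genes the tilt ran in the same direction and was smaller at that boundary, with 61.2% negative changes above it (median -0.028) and 39.3% below (median 0.025). The difference in tilt was not tested. The positive changes of dim chains such as Col4a4, Col6a4 and Col8a2 stand beside this tilt over all genes, whose part in them was not tested.

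The collagens also shared deviations between arrays. On SmoM2 1 and wild type 3, 35 and 33 of the 44 collagens lay above their own group's mean, and on SmoM2 2 and wild type 2 the numbers were 9 and 12. Col4a5, Col6a5, Col4a3 and Col9a3 followed this pattern, and Col12a1 ran opposite to it. The arrays that were high or low together have different genotypes. The pattern was not particular to collagens. Between SmoM2 1 and wild type 3 the deviations correlated at 0.52 over all genes and 0.67 over the collagens. For SmoM2 2 and wild type 2 these correlations were 0.52 and 0.69. Within the sets, the median change over the 44 collagens was -0.036 in set A and -0.055 in set B.

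**Figure D4:**
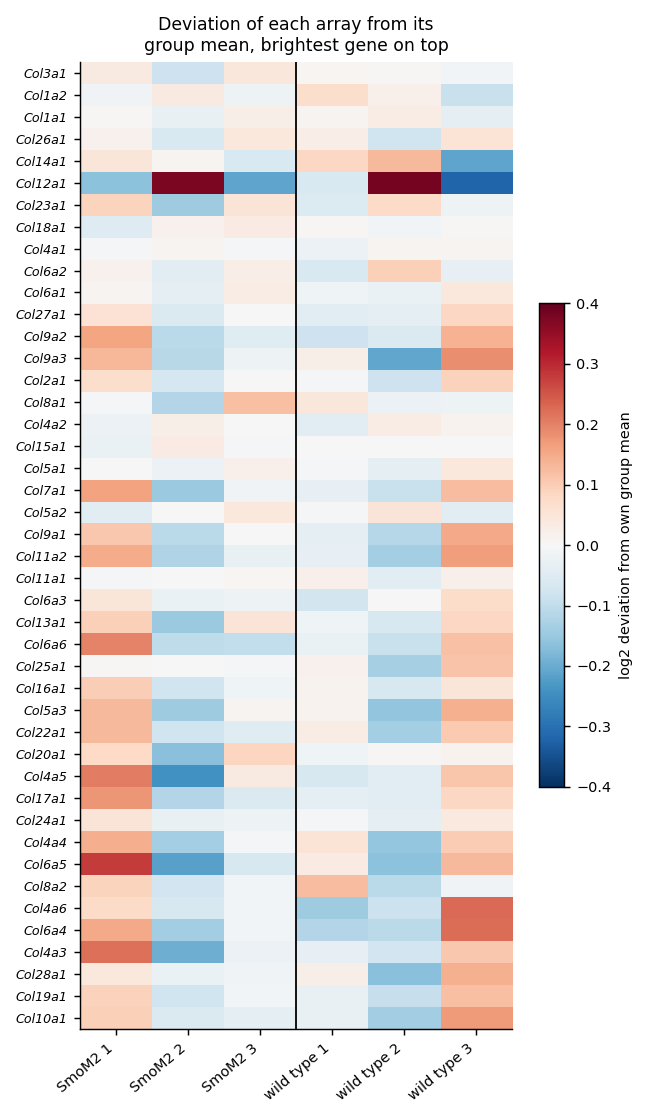
Deviation of each array from the mean of its own group (log2, colours limited to 0.4 either way) for the 44 collagen genes, from the brightest at the top to the dimmest, with the SmoM2 arrays left of the line and the wild type arrays right of it. SmoM2 1 and wild type 3 are high in 35 and 33 genes, SmoM2 2 and wild type 2 in 9 and 12, and Col12a1 shows the opposite.

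The genes that build, hold and cut collagen were read beside the chains, from 6 lists with 91 measured genes. Of these 3 rose and 1 fell, beside 0.326% of all genes higher and 0.657% lower. In the list of folding and modification in the endoplasmic reticulum 0 of 24 passed in either direction (median change -0.024). P3h2, a prolyl 3-hydroxylase that acts on type IV collagen, had 11.05, 11.07 and 11.59 in SmoM2, against 10.71, 10.75 and 10.67 in wild type (change 0.53, adjusted p = 0.123). P4ha3, a prolyl 4-hydroxylase subunit, had a difference of -0.36, at an adjusted p of 0.274. Among genes of procollagen processing and crosslinking 0 of 11 passed (median -0.093), with Loxl1, a crosslinking oxidase, at -0.26 and Loxl4 at 0.23. Of 13 genes of collagen breakdown 0 passed (median -0.038), with the membrane protease Mmp16 at -0.33 and the inhibitor Timp4 at 0.21.

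Fibril partners gave the increases. Of 19 measured, 3 rose and 0 fell, beside 0.326% of all genes higher and 0.657% lower. The 3 are small leucine-rich proteoglycans, a family of fibril-binding proteins. Other members of the family in the list did not pass, with changes of 0.00077 for Dcn, -0.064 for Bgn, 0.033 for Prelp, 0.074 for Aspn, 0.11 for Kera and -0.22 for Fmod, whose groups did not overlap. Epyc had 9.52, 9.37 and 9.48 in SmoM2, against 8.44, 8.33 and 8.29 in wild type (2.14-fold higher, adjusted p = 0.00066). Lum had 10.35, 10.38 and 10.63 in SmoM2, against 9.27, 9.71 and 9.62 in wild type (1.89-fold higher, adjusted p = 0.0121), and without SmoM2 3 its adjusted p was 0.0774. Ogn had 9.30, 9.22 and 9.74 in SmoM2, against 8.77, 8.69 and 8.71 in wild type (1.62-fold higher, adjusted p = 0.0349). The Ogn call was lost without wild type 1, wild type 2, SmoM2 1 or SmoM2 3, at an adjusted p of 0.138, 0.120, 0.0822 and 0.0702. Within set A and set B the changes were 0.98 and 1.21 for Epyc, 0.90 and 0.87 for Lum and 0.49 and 0.81 for Ogn. These genes were already known to be higher when the list was written. Fn1, the fibronectin gene on which collagen fibrils assemble, had a change of -0.51 (adjusted p = 0.178).

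Basement membrane partners had negative changes in 12 of 14 cases, with a median of -0.27, beside 0.0018 over all genes, and 0 passed. Hspg2, the heparan sulfate proteoglycan perlecan, had 9.64, 9.68 and 9.57 in SmoM2, against 9.93, 10.26 and 9.86 in wild type (change -0.39, adjusted p = 0.154). Nid2, a nidogen that links laminin to type IV collagen, had 9.46, 9.47 and 9.50 in SmoM2, against 9.93, 9.91 and 9.71 in wild type (change -0.37, adjusted p = 0.0682). Of 10 collagen receptors 1 fell and 0 rose (median -0.13). It was Adgrg1, an adhesion receptor known to bind type III collagen in the brain, at 9.78, 10.13 and 9.94 in SmoM2, against 10.45, 10.47 and 10.42 in wild type (1.41-fold lower, adjusted p = 0.0432). The change was -0.32 within set A and -0.56 within set B. That call was lost without any array other than SmoM2 2, with adjusted p from 0.0583 to 0.212. It was also lost with median centring (0.0649) and with the Y-linked signal in the model (0.509). Ddr1, a collagen-binding kinase of epithelium, had a change of -0.27 (adjusted p = 0.251), and Ddr2, its counterpart in mesenchyme, had one of 0.20 (adjusted p = 0.374).

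**Figure D5:**
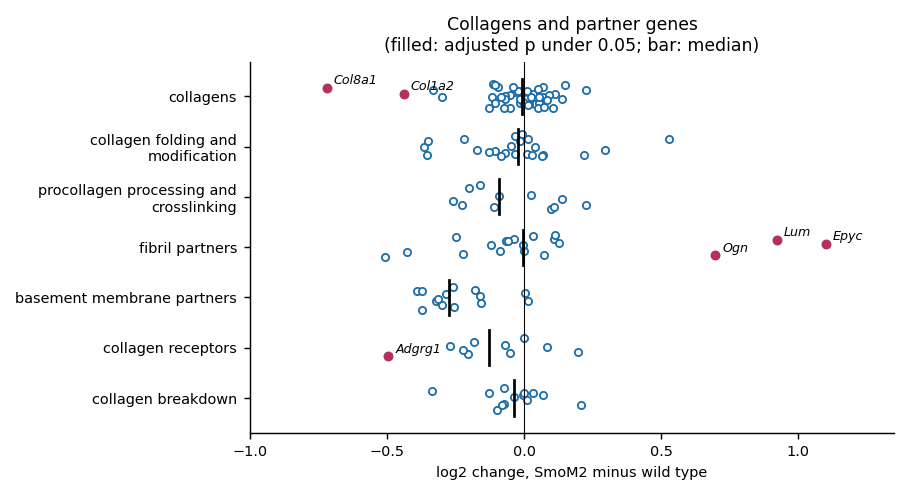
Log2 change, SmoM2 minus wild type, of the 44 collagens and of the measured genes in 6 lists of their partners, each point a gene and each bar the median of its list. Filled points passed an adjusted p of 0.05 over all genes. The named increases are Epyc, Lum and Ogn, and the named decreases Col8a1, Col1a2 and Adgrg1.

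Markers of the cell types that could carry these collagens moved too. The counts that follow stand beside 0.326% of all genes higher and 0.657% lower. Mean epithelial marker signal was 9.94 to 10.05 on the SmoM2 arrays and 10.39 to 10.52 on the wild type arrays, with 6 of 10 markers lower, the most changed being Esrp1 (-0.68), Cldn6 (-0.66), Cdh1 (-0.58) and Krt18 (-0.57). Mesothelial markers, with 2 of 7 lower (Bnc1 at -0.72 and Wt1 at -0.52), averaged 9.52 to 9.67 in SmoM2 and 9.83 to 9.94 in wild type. Endothelial markers had 0 of 9 past the threshold and averaged 10.42 to 10.56 in SmoM2 and 10.63 to 10.68 in wild type, with 9 of 9 changes negative (median -0.13). Smooth muscle markers, with 4 of 10 higher (Myocd, Actg2, Myl9 and Acta2) and 1 lower (Des), averaged 10.27 to 10.47 in SmoM2 and 10.01 to 10.07 in wild type. The dimmest marker of these 4 lists had a mean of 8.21. Of the neuronal markers 3 of 8 were lower (Dcx at -1.07, Nefm at -1.01 and Nefl at -0.84) and 0 higher, with 3 of 8 changes positive. Pancreas and liver markers had 2 of 8 lower (Cpa1 at -0.98 and Gcg at -0.86) and 0 higher, with 5 of 8 changes positive. Gcg had a wild type mean of 12.31, and Alb, a liver gene, ran from 10.31 on wild type 1 to 12.58 on SmoM2 2. Whether the samples held neighbouring tissue was not tested. Of 4 intestinal markers 0 passed. Blood markers had 0 of 8 past the threshold and averaged 9.81 to 9.97 in SmoM2 and 10.14 to 10.24 in wild type, with 8 of 8 changes negative (median -0.37). Skeletal muscle markers had 0 of 7 past it and averaged 8.61 to 8.89 in SmoM2 and 8.53 to 8.71 in wild type, with 7 of 7 changes positive (median 0.16). The part of these shifts in the changes of Col8a1 and Col1a2 was not tested.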

How the data were processed

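Total RNA, extracted with Trizol and labelled with biotin per the labels' protocols, was measured on 6 arrays. The deposited values are log2 signals of 35556 probe sets. Per the submitters' processing notes they come from RMA and affy, of versions not stated there. RMA brings the arrays to a similar distribution, so a change in total RNA would not show. The deposited values kept small offsets, with array medians from 8.56 to 8.62.

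Gene names came from the platform annotation, with 21789 probe sets of 1 symbol, and all 44 collagen symbols matched RefSeq (GRCm38.p6). The genotypes were compared, SmoM2 minus wild type, by lmFit and eBayes without covariates (limma 3.58.1, R 4.3.3). The fit was also run on simulated data with noise independent between arrays. The real arrays share deviations, so that run does not vouch for the calls made here. Promoter sequences came from RefSeq. Members, classes, partner lists and tests were chosen with earlier results of these data known. The genes given with values for each array were those past the threshold, the members of each class with the highest wild type mean or the largest change either way, and chains that do not overlap or share a heterotrimer. From partner lists up to 4 genes past the threshold or the 2 with the largest change were named. Fn1, Ddr2, Acan, the stomach markers and the proteoglycans that did not pass, and values for each array beyond this rule, were chosen after their values were seen. Same-numbered arrays did not pair (correlations of deviations -0.10, 0.52 and 0.065).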

Additional observations from a re-analysis of the deposited data

How the results depend on the processing

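Of 696 refitted changes of single collagens, 6 lost and 6 gained a call and 684 did neither, with 0 calls reversed. Only Col8a1 and Col1a2 had a call to lose, and they kept it in 15 and 11 of 16 refits each. The lower collagens numbered 1 to 2 when each array was left out in turn, 4 with array weights and 0 with Y-linked signal in the model, a choice made after seeing the data, as was the term for the sets of arrays. The causes were not tested. With that covariate Col8a1 had a change of -0.66 (adjusted p = 0.0857) and Col1a2 -0.36 (adjusted p = 0.485), while 14 genes in all were higher and 8 lower. Over all genes 65 were higher and 131 lower as reported, 620 and 1230 with array weights, 158 and 540 with the replicate block, 110 and 252 with trend and robust, 97 and 227 with the array sets, 88 and 203 among brighter genes and 102 and 179 after repeated quantile normalization. They were 24 and 27 without wild type 1, 22 and 40 without wild type 2, 38 and 42 without SmoM2 1, 13 and 19 without SmoM2 3, 56 and 172 without wild type 3 and 63 and 184 without SmoM2 2, and the share of all genes called rests on these counts. Partner lists also gained calls. With the replicate block 5 basement membrane partners, 2 fibril partners, 2 folding genes and 1 breakdown gene were lower and 1 folding gene higher. With array weights 9 basement membrane partners, 3 fibril partners, 2 folding genes, 2 processing genes, 2 receptors and 1 breakdown gene were lower, and 3 folding genes, 1 processing gene and 1 receptor higher. Other settings moved each list by at most 1 call, except that fibril partners had 1 higher without SmoM2 3 and with the Y-linked covariate. Of the fibril partners only Epyc still passed with the Y-linked covariate. Higher collagens numbered 0 in every alternative run. The replicate block, whose numbers did not pair the samples, gave 2 calls kept and Col1a1 added (adjusted p = 0.0250), so 3 lower. Col1a1 also passed with the term for the array sets (0.0376), eBayes with trend and robust (0.0243), array weights (0.00479) and probe sets above the median (0.0207), and Col14a1 with array weights (0.0122).

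Medians near 0 moved with the setting. With the Y-linked covariate they were -0.096 over all collagens, -0.094 fibrillar, -0.11 basement membrane and -0.099 network. Repeated quantile normalization gave 0.029 for the fibrillar class. The basement membrane median was -0.074 among brighter genes, 0.017 with type IV alone and -0.070 with the array sets, and the network median was -0.72 among brighter genes, where Col8a1 alone was left. Leaving out each array gave -0.048 to 0.025 for fibrillar, -0.080 to 0.0079 for basement membrane, -0.017 to 0.099 for network and -0.060 to 0.12 for other collagens. With 3 arrays a group, differences of dim chains within their intervals were not detectable.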
